A study of Mus musculus with 9 samples.

Results

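The 84 genes described here encode subunits of the oxidative phosphorylation machinery of mitochondria, and they were measured in whole mouse embryos carrying mutant alleles of Notch1 or of Dll3. They were chosen by a rule on names, with earlier results of these data known. A probe set of the array had to be annotated to exactly 1 gene symbol. That symbol had to begin with Nduf, Uqcr, Atp5 or one of Cox4 to Cox8, or to be Sdha, Sdhb, Sdhc or Sdhd. The rule found 84 of the 12393 genes measured, through 156 probe sets. It placed 39 genes in complex I, 4 in complex II, 8 in complex III, 16 in complex IV and 17 in complex V. Of the 39 complex I genes, 5 are Ndufaf assembly factors, which build the complex without being part of it. One further gene, Ndufa4, carries a complex I name although its protein is now placed in complex IV, and it is counted here where its name puts it.

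Oxidative phosphorylation passes electrons from NADH and succinate along complexes I to IV of the inner mitochondrial membrane to oxygen. Complexes I, III and IV pump protons as they do so, and complex V, the ATP synthase, lets the protons flow back to make ATP. Complex II is also an enzyme of the tricarboxylic acid cycle. The genes described here are nuclear, and the rule does not take in every nuclear subunit gene. Some further subunits of complexes I, III, IV and V are made from mitochondrial DNA. Mouse embryos at the stage studied have a beating heart and a developing circulation, and their tissues are moving from a strong reliance on glycolysis towards respiration.

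RNA came from entire embryos at 9.5 days post coitum, was extracted with the RNAqueous kit and was labelled for Affymetrix arrays, 9 in all. The 5 genotypes were wild type (+/+, 2 arrays), Notch1 heterozygous (Notch1tm1Con/+, 1 array), Notch1 homozygous mutant (Notch1tm1Con/tm1Con, 2 arrays, called Notch1 null), Dll3 heterozygous (Dll3neo/+, 2 arrays) and Dll3 homozygous mutant (Dll3neo/neo, 2 arrays, called Dll3 null). Notch1 is a receptor of the Notch pathway and Dll3 a ligand-family protein that acts in somite formation. The strain C57BL/6J is named for the first Notch1 null array alone. Whether an array holds 1 embryo or several, and whether arrays of a genotype come from separate litters, is not said. The p-values then reflect no more than how far these arrays lie apart, and part of that spread may be technical. The deposited values are ratios, each probe set having been divided by a number of its own. Values below are log2 of these ratios, averaged over the probe sets of a gene: 0 is close to the gene's own median over the 9 arrays. A level of one gene can therefore not be set against that of another, and whether a gene or a tissue marker was detected at all cannot be judged. The embryo being measured whole, fewer cells of a type and less RNA per cell cannot be told apart.

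The signal of the targeted genes was examined first. For Notch1 it was 0.47 and 0.78 (log2 ratio) in the Notch1 null arrays, 0.10 in the heterozygous array and -0.08 and 0.02 in wild type, so it was not lower in the arrays labelled null, and it gave no check of that label. Dll3 was at -0.31 and -0.10 in the Dll3 null arrays and at 0.13 and 0.00 in wild type. Where in either gene the probes lie relative to the targeted change is not known here. The control transcript dap, which is added to samples, ranged from a ratio of 2.87 to 9.20 in the wild-type and Notch1 null arrays, was 1.00 in the Notch1 heterozygous array and lay between 0.44 and 0.47 in the 4 Dll3 arrays. Probe sets at the 3' end minus those at the 5' end gave -0.10 to 0.16 for Gapdh and -0.11 to 0.16 for Actb over the 9 arrays, on the log2 scale.

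The question addressed first was how the respiratory genes stood in embryos homozygous for the Notch1 mutation. In the Notch1 null arrays 25 of the 84 genes fell against wild type, 1 rose and 58 did not pass the test (limma, adjusted p under 0.05, Benjamini-Hochberg over all 12393 genes). Among all genes 12.1% passed, 8.35% falling and 3.76% rising, so the 25 that fell (29.8% of the 84) stand above the background and the 1 that rose does not. Their median log2 difference was -0.23, beside -0.03 over all genes, and 69 of the 84 differences lay below 0, against 57.5% of all genes. Both Notch1 null arrays lay below both wild-type arrays for 62 of the 84 genes (73.8%, background 35.6%) and above both for 7 (8.33%, background 20.6%). The drops were small, the largest among the genes that passed being 1.70-fold (Atp5e).

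**Figure D1:**
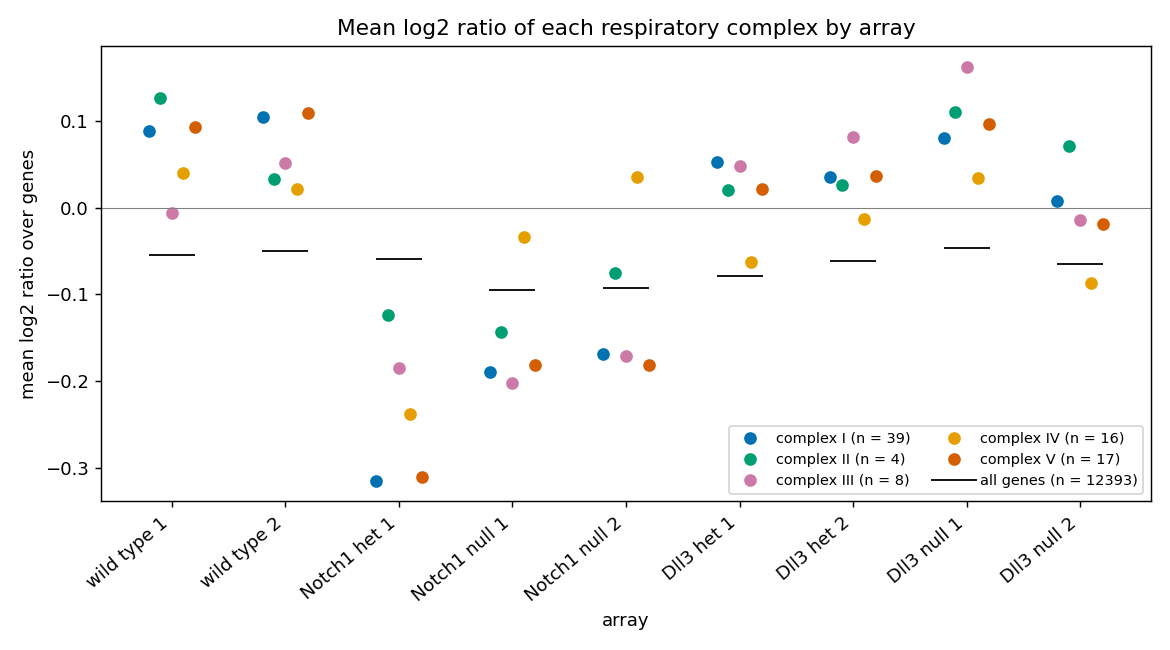
Mean log2 ratio of the genes of each complex on each of the 9 arrays; the vertical axis is the mean log2 ratio over genes, the horizontal axis the arrays by genotype, colours mark the complexes, and short lines give the mean over all 12393 genes. The Notch1 null and heterozygous arrays lie lowest for complexes I, II, III and V (from -0.31 to -0.08), while for complex IV the Notch1 null arrays (-0.03 and 0.04) lie among the others.

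By complex, the genes that passed were spread as follows. Complex I supplied 16 of the genes that fell and the single gene that rose (39 genes, median log2 difference -0.25), and complex V supplied 6 of 17 (median -0.25). Complexes II, III and IV supplied 1 gene each, of 4, 8 and 16 genes, with medians of -0.18, -0.20 and -0.13. Beside the 8.35% of all genes that fell, 1 gene of 8 or of 16 is near the background, and 4 genes are too few to read a share from. The difference between complexes was not tested. The mean over the genes of complex I was -0.19 and -0.17 in the 2 Notch1 null arrays, -0.31 in the heterozygous array, 0.09 and 0.10 in wild type, 0.05 and 0.04 in Dll3 heterozygous and 0.08 and 0.01 in Dll3 null arrays. For complex V the same means were -0.18 and -0.18, then -0.31, then 0.09 and 0.11, then 0.02 and 0.04, then 0.10 and -0.02. In both complexes the 3 arrays with a Notch1 allele lay below all 6 others. Complex IV stood at -0.03 and 0.04 in Notch1 null, -0.24 in the heterozygous array, 0.04 and 0.02 in wild type, -0.06 and -0.01 in Dll3 heterozygous and 0.03 and -0.09 in Dll3 null arrays, so there only the heterozygous array was apart.

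The core of complex I is the set of subunits that carry out electron transfer and proton pumping and are conserved from bacteria; 6 of the 7 nuclear-encoded ones were measured. Of these 6, 4 fell in the Notch1 null arrays, with a median over the 6 of -0.43. Ndufs8, which holds iron-sulphur clusters, was at -0.33 and -0.36 in Notch1 null, -0.31 in the heterozygous array, 0.20 and 0.19 in wild type, 0.02 and 0.06 in Dll3 heterozygous and 0.24 and -0.06 in Dll3 null arrays. All 3 Notch1 mutant arrays were below the other 6, and the fall against wild type was 0.55 ± 0.11 (log2, SE of the fit; 2 arrays against 2; limma adjusted p = 0.0123). Ndufv1, the subunit that binds FMN and oxidises NADH, fell by 0.46 ± 0.10 (adjusted p = 0.0175 by limma). Ndufs3 fell by 0.47 ± 0.11 (adjusted p = 0.025 by limma) and Ndufs7, which carries the last iron-sulphur cluster before ubiquinone, by 0.40 ± 0.11 (limma adjusted p = 0.038). The other two did not pass: Ndufv2 differed by -0.20 and Ndufs1, the largest iron-sulphur subunit, by -0.11 (limma adjusted p = 0.183 and 0.594). For Ndufs8 the 6 probe sets gave differences from -0.99 to -0.12, all in one direction.

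Accessory subunits surround this core and are needed for its assembly and stability. Ndufb10, in the membrane arm, had log2 ratios of -0.15 and -0.17 in Notch1 null, -0.66 in the heterozygous array, 0.46 and 0.55 in wild type, 0.00 and -0.12 in Dll3 heterozygous and 0.20 and 0.02 in Dll3 null arrays. Wild type was highest here, above every one of the 7 other arrays, and the fall in Notch1 null was 0.67 ± 0.10 (1.59-fold; limma adjusted p = 0.0043). Ndufa5, in the matrix arm, was at -0.38 and -0.51 in Notch1 null, -0.34 in the heterozygous array, 0.18 and 0.13 in wild type, 0.09 and 0.06 in Dll3 heterozygous and 0.05 and 0.15 in Dll3 null arrays. All 3 Notch1 mutant arrays were low while the other 6 lay between 0.05 and 0.18, and the fall in Notch1 null was 0.60 ± 0.09 (limma adjusted p = 0.00489). Ndufc1, a small membrane subunit, was at -0.10 and -0.06 in Notch1 null, -0.49 in the heterozygous array, 0.31 and 0.30 in wild type, 0.05 and 0.02 in Dll3 heterozygous and 0.12 and -0.06 in Dll3 null arrays. As for Ndufb10, wild type lay above all others and the heterozygous array below all others; the fall in Notch1 null was 0.38 ± 0.09 (limma adjusted p = 0.0285). The higher Notch1 null array and the lower Dll3 null array were both close to -0.06.

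Among further accessory subunits of complex I, those that fell in Notch1 null were Ndufb7 (by 0.53), Ndufa10 (by 0.50), Ndufs5 (by 0.47), Ndufb1 (by 0.45), Ndufb2 (by 0.42), Ndufa2 (by 0.40) and Ndufs4 (by 0.34, log2; limma adjusted p from 0.0121 to 0.0433). Ndufs4 is the accessory subunit whose loss in mice causes a Leigh-like encephalopathy. Its fall did not pass under 14 of 20 alternative settings. Of the 5 assembly factors, Ndufaf4 fell by 0.64 ± 0.14 and Ndufaf5, which modifies the core subunit Ndufs7, by 0.49 ± 0.10 (limma adjusted p = 0.0164 and 0.0148). Ndufaf4 stood at -0.35 and -0.63 in Notch1 null but at 0.08 in the heterozygous array, inside the range of the wild-type and Dll3 arrays (-0.15 to 0.25). The 2 genes nearest to the threshold on the other side were Ndufb6 (-0.38, limma adjusted p = 0.0507) and Ndufa4 (-0.44, limma adjusted p = 0.0653). The measured X-linked genes of complex I, Ndufa1 and Ndufb11, did not pass, with log2 differences of -0.15 and -0.01.

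Ndufv3, a small accessory subunit near the NADH-oxidising end of complex I, was the only one of the 84 genes that rose in Notch1 null. It was at 0.42 and 0.44 in the Notch1 null arrays, -0.40 in the heterozygous array, -0.08 and 0.06 in wild type, -0.08 and 0.02 in Dll3 heterozygous and -0.03 and 0.00 in Dll3 null arrays. The 2 Notch1 null arrays were the highest and the heterozygous array the lowest, with all others between -0.08 and 0.06. The rise against wild type was 0.44 ± 0.09 (1.36-fold; limma adjusted p = 0.0167), and it no longer passed without the first wild-type array (limma adjusted p = 0.104), without either Notch1 null array or under quantile normalization.

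**Figure D2:**
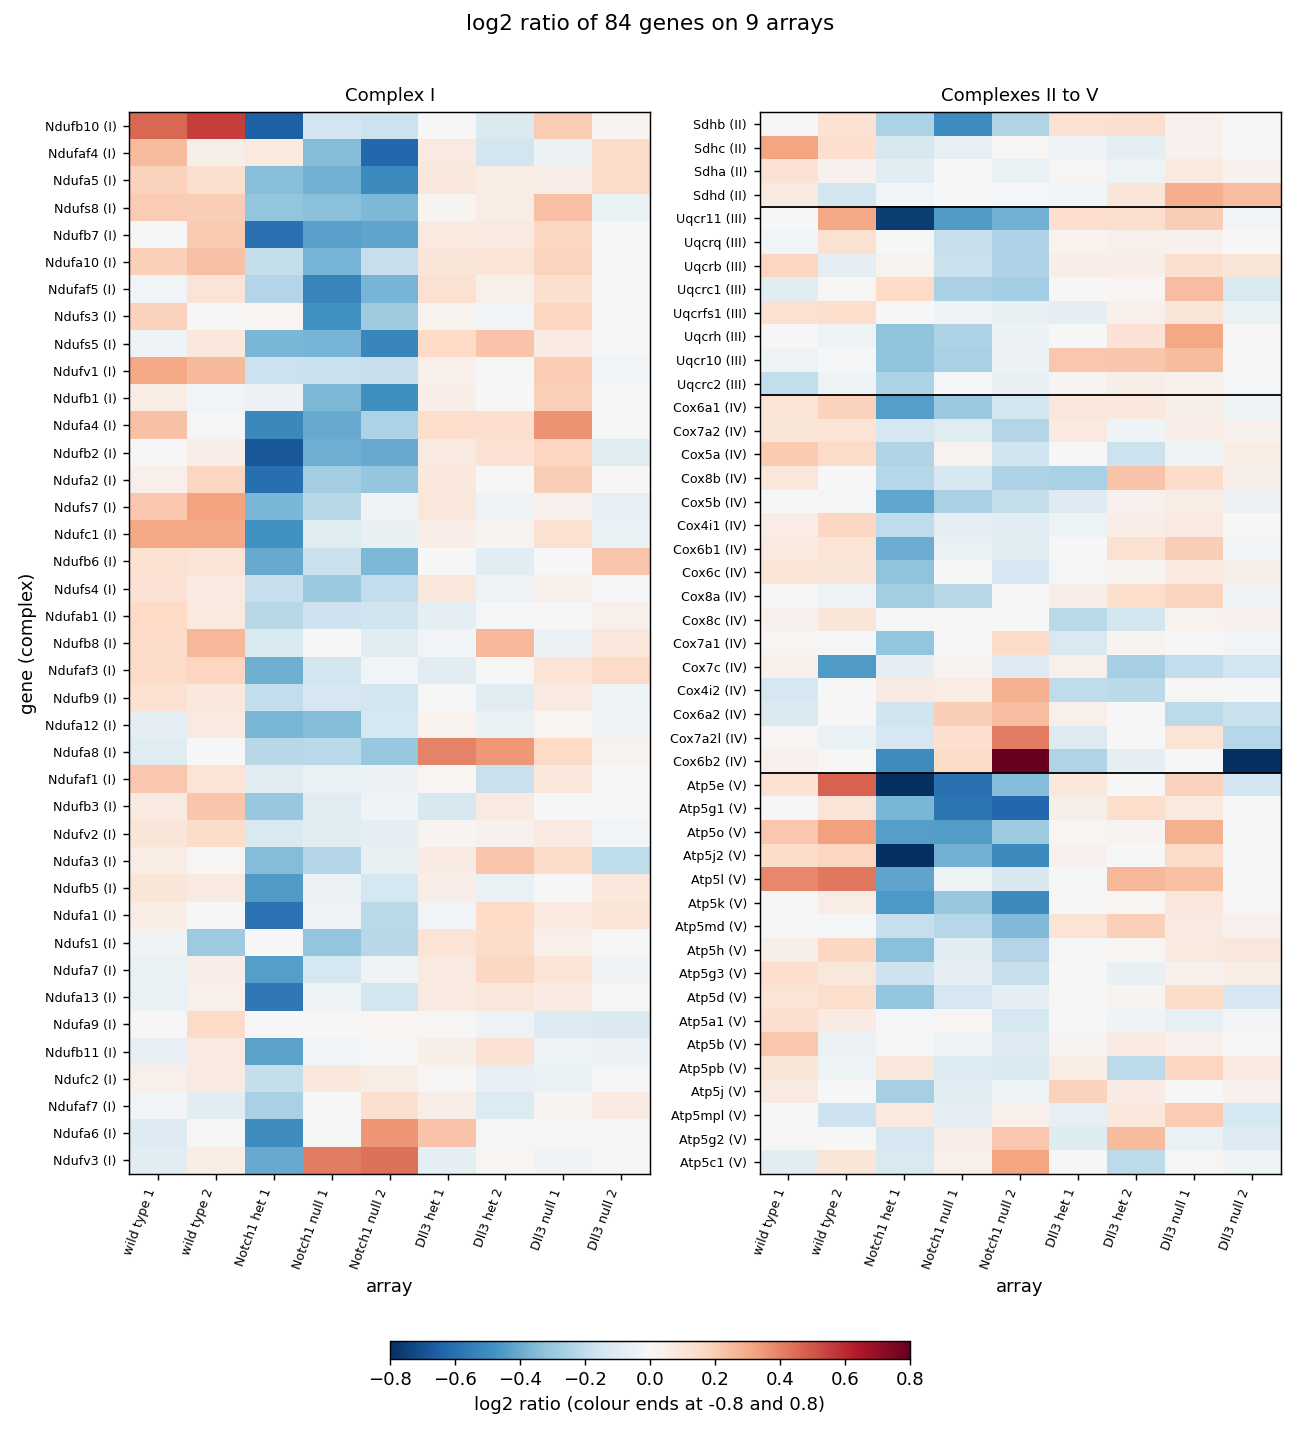
Log2 ratio of each of the 84 genes (rows, grouped by complex and ordered by the Notch1 null minus wild-type difference) on each of the 9 arrays (columns); blue is below and red above the gene's own reference, with colours ending at -0.8 and 0.8. The Notch1 heterozygous and null columns are blue over most of complexes I and V, Ndufv3 at the foot of complex I is red in Notch1 null, and several complex IV genes (Cox4i2, Cox6a2, Cox7a2l, Cox6b2) are red in Notch1 null.

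Complex II oxidises succinate, and 1 of its 4 genes passed. Sdhb, its iron-sulphur subunit, was at -0.50 and -0.24 in Notch1 null, -0.25 in the heterozygous array, 0.00 and 0.12 in wild type, 0.12 and 0.13 in Dll3 heterozygous and 0.04 and 0.00 in Dll3 null arrays. The 3 Notch1 mutant arrays were the lowest, and the fall in Notch1 null was 0.43 ± 0.11 (limma adjusted p = 0.0303). Sdha, the catalytic flavoprotein, differed by -0.10, and the membrane anchors Sdhc and Sdhd by -0.25 and 0.03 (limma adjusted p = 0.535, 0.132 and 0.909).

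Complex III passes electrons from ubiquinol to cytochrome c. Uqcr11, its smallest accessory subunit, was at -0.45 and -0.38 in Notch1 null, -0.76 in the heterozygous array, 0.00 and 0.31 in wild type, 0.13 and 0.13 in Dll3 heterozygous and 0.20 and -0.02 in Dll3 null arrays. The 3 Notch1 mutant arrays lay apart below all others, and the fall in Notch1 null was 0.57 ± 0.12 (limma adjusted p = 0.0167). The other 7 genes that the rule placed here did not pass, from Uqcrq at -0.27 to Uqcrc2, a core protein, at 0.09. Both of these averages hide disagreement between probe sets. For Uqcrq, 1 of 4 probe sets fell by 1.00 (limma adjusted p = 0.0019 among probe sets) while another was at 0.20, and for Uqcrc2 one rose by 0.44 (limma adjusted p = 0.0438) while the other was at -0.27.

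Complex IV, cytochrome c oxidase, has several subunits with isoforms that differ between tissues. Only Cox6a1, the widely expressed form of subunit VIa, passed: it was at -0.30 and -0.14 in Notch1 null, -0.44 in the heterozygous array, 0.11 and 0.18 in wild type, 0.09 and 0.09 in Dll3 heterozygous and 0.05 and -0.04 in Dll3 null arrays. Again the 3 Notch1 mutant arrays were the lowest, and the fall in Notch1 null was 0.37 ± 0.10 (limma adjusted p = 0.0346). Its heart and skeletal muscle counterpart Cox6a2 was at 0.20 and 0.25 in Notch1 null, -0.16 in the heterozygous array, -0.12 and 0.00 in wild type, 0.04 and 0.00 in Dll3 heterozygous and -0.21 and -0.18 in Dll3 null arrays. The Notch1 null arrays were the highest of the 9, and the difference from wild type was 0.28 ± 0.09 without passing (limma adjusted p = 0.0794). Cox4i2, an isoform of subunit IV induced by low oxygen in some tissues, was at 0.06 and 0.28 in Notch1 null, 0.06 in the heterozygous array, -0.13 and 0.00 in wild type, -0.20 and -0.21 in Dll3 heterozygous and 0.01 and 0.00 in Dll3 null arrays. Its difference of 0.24 ± 0.10 did not pass either (limma adjusted p = 0.178), nor did that of its ubiquitous partner Cox4i1 (-0.19).

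For the other isoforms, the muscle form Cox7a1 differed by 0.07 and the widely expressed Cox7a2 by -0.27, while Cox7a2l, which takes part in joining complexes into supercomplexes, differed by 0.30 (log2, none passing). Cox8a, Cox8b and Cox8c differed by -0.10, -0.24 and -0.07. Cox6b1 differed by -0.17. Cox6b2, its testis counterpart, gave the highest difference of complex IV at 0.48 ± 0.28 (limma adjusted p = 0.325), with 0.15 and 0.86 in the 2 Notch1 null arrays and 0.00 and -0.91 in the 2 Dll3 null arrays, so that arrays of 1 genotype lay far apart.

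Markers of heart muscle were measured alongside. Of 16 markers 3 (18.8%, beside 3.76% of all genes) rose in Notch1 null (Ttn, Myh7 and Ryr2) and 13 did not pass. The mean of all 16 was 0.10 and 0.25 in the Notch1 null arrays and lay between -0.14 and 0.02 in the other 7. Skeletal muscle markers gave 2 that fell of 8 (25%, beside 8.35% of all genes). The part of either in the values of Cox6a2, Cox7a1 and Cox8b was not tested.

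The deepest drop of the 84 genes was in the ATP synthase. Atp5e, the small epsilon subunit of its central stalk, was at -0.60 and -0.35 in Notch1 null, -1.25 in the heterozygous array, 0.11 and 0.47 in wild type, 0.08 and 0.00 in Dll3 heterozygous and 0.18 and -0.15 in Dll3 null arrays. The 3 Notch1 mutant arrays were the lowest, with the heterozygous array far below the rest, and the fall in Notch1 null was 0.77 ± 0.15 (1.70-fold; limma adjusted p = 0.0125). Atp5j2, subunit f of the membrane part, was at -0.39 and -0.51 in Notch1 null, -0.97 in the heterozygous array, 0.15 and 0.17 in wild type, 0.03 and 0.00 in Dll3 heterozygous and 0.15 and -0.01 in Dll3 null arrays. As for Atp5e, the heterozygous array was lowest and the Notch1 null arrays came next, and the fall in Notch1 null was 0.61 ± 0.10 (limma adjusted p = 0.0053). Subunits e and g, encoded by Atp5k and Atp5l and found beside f where synthases pair into dimers, fell by 0.44 ± 0.10 and 0.48 ± 0.12 (limma adjusted p = 0.0212 and 0.0302). Atp5o, the OSCP subunit that ties the catalytic head to the stator stalk, fell by 0.64 ± 0.12 (limma adjusted p = 0.00863).

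Subunit c, which forms the rotating ring, is encoded by 3 genes whose mature proteins are identical. Atp5g1 was at -0.58 and -0.63 in Notch1 null, -0.36 in the heterozygous array, 0.00 and 0.10 in wild type, 0.05 and 0.14 in Dll3 heterozygous and 0.08 and -0.01 in Dll3 null arrays. Here the Notch1 null arrays, not the heterozygous one, were lowest, and the fall of 0.66 ± 0.09 (1.58-fold) had the lowest adjusted p of the 84 genes (0.00351, limma). Atp5g2 differed by 0.13 and Atp5g3 by -0.25 (limma adjusted p = 0.593 and 0.114). The catalytic subunits Atp5a1 and Atp5b differed by -0.16 and -0.15, and Atp5c1, the gamma subunit of the central stalk, had the highest difference of complex V at 0.17 (limma adjusted p = 0.318, 0.425 and 0.442).

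**Figure D3:**
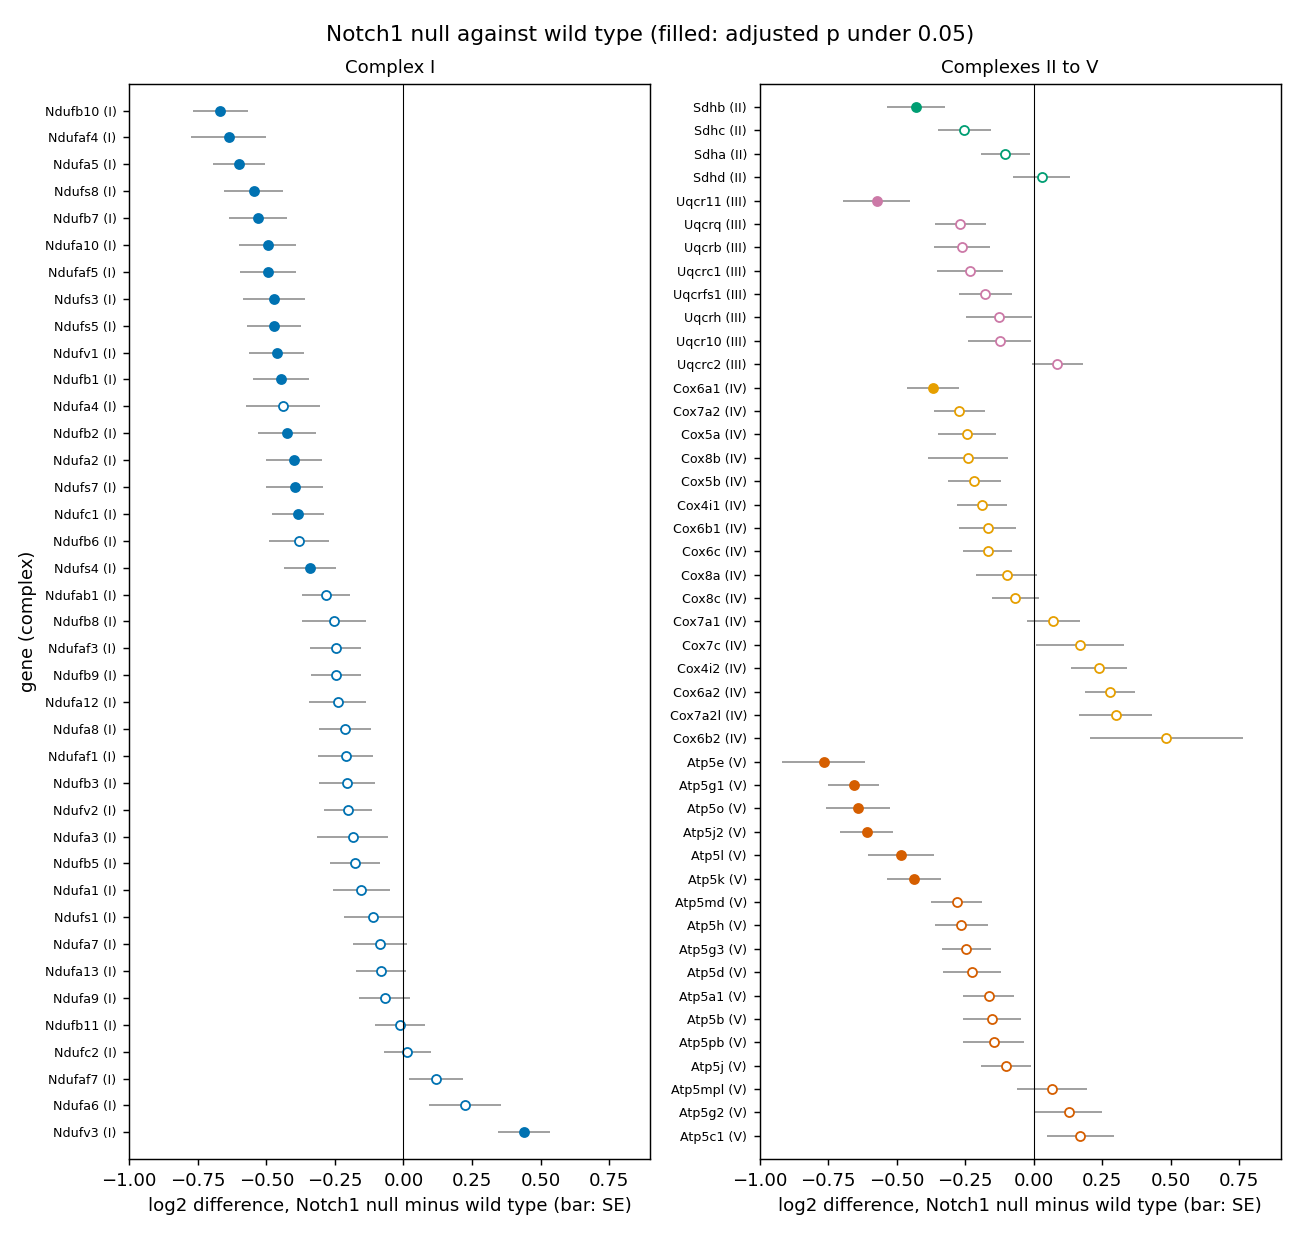
Log2 difference between Notch1 null and wild type for each of the 84 genes, by complex, with bars of 1 standard error of the fit; filled points passed an adjusted p of 0.05 and the vertical line marks 0. The 25 genes that fell lie between -0.77 and -0.34, Ndufv3 stands alone among those that passed on the right at 0.44, and Cox6b2 has the widest bar.

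Genes of all 5 complexes were among those that fell, though complexes II, III and IV gave only 1 each. Promoters of the 84 genes were read for motifs of regulators known for nuclear respiratory genes. The windows are those of RefSeq on assembly GRCm38.p6, from 250 bases before to 50 bases after the transcript start, and 70 of the 84 genes matched one by gene identifier. Shown are Ndufb10, Sdhb, Uqcr11, Cox6a1 and Atp5g1, the gene of each complex with the lowest adjusted p among those with a window, and Ndufv3, the gene that rose. They lie at chr17:24724374-24724673 (Ndufb10, minus strand), chr4:140961021-140961320 (Sdhb, plus strand), chr10:80406772-80407071 (Uqcr11, minus strand), chr5:115348909-115349208 (Cox6a1, minus strand), chr11:96075582-96075881 (Atp5g1, minus strand) and chr17:31519865-31520164 (Ndufv3, plus strand). Each is written 5′ to 3′ on the strand of the gene, and capitals mark matches to the NRF1 motif (GCGC, then any base, then TGCGC) or to the ETS motif CCGGAAG, searched on both strands.
Ndufb10: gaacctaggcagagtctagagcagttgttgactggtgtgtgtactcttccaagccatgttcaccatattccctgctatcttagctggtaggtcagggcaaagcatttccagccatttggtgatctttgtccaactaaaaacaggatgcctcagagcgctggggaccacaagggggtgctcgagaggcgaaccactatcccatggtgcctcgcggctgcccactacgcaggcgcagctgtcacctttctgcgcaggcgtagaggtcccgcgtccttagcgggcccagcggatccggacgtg
Sdhb: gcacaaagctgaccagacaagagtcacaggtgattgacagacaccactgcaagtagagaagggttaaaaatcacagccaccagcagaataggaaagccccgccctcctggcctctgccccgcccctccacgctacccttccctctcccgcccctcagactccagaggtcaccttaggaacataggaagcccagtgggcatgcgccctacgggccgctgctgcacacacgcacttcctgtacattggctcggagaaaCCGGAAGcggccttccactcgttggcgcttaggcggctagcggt
Uqcr11: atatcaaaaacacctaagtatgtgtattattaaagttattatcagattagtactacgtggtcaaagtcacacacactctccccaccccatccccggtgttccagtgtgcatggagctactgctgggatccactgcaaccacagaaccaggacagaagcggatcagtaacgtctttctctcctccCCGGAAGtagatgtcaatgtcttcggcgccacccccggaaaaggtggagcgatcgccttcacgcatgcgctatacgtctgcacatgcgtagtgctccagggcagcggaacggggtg
Cox6a1: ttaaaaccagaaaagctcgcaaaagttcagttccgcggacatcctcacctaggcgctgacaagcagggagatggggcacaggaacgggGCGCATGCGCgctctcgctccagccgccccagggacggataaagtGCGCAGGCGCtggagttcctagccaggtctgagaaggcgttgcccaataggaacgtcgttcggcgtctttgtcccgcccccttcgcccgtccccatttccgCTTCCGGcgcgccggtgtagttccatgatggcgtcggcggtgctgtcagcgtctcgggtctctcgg
Atp5g1: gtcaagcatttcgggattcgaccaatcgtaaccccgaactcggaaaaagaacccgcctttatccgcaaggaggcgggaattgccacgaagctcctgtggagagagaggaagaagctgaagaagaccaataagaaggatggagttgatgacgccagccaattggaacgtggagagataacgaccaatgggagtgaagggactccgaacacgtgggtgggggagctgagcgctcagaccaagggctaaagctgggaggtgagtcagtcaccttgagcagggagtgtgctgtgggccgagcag
Ndufv3: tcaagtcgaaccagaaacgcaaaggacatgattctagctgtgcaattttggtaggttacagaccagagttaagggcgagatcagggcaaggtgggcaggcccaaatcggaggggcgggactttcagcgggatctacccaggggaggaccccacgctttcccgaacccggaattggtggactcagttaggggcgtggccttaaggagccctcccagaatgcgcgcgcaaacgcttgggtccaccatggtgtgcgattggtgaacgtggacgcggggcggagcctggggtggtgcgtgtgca
The promoter window of Cox6a1 held 2 matches to the NRF1 motif and 1 to the ETS motif, those of Sdhb and Uqcr11 held 1 ETS match each, and those of Ndufb10, Atp5g1 and Ndufv3 held neither. NRF1 is a transcription factor of many nuclear genes for respiration, and ETS motifs are bound by GABP, also called NRF2. Over the 70 windows the NRF1 motif was found in 15 (21.4%), beside 8.63% of the 9883 windows of genes on the array. The ETS motif was found in 17 (24.3%, against 15.0%), the YY1 motif AAGATGGC in 8 (11.4%, against 3.98%) and ACGTG, the core that HIF factors bind, in 19 (27.1%, against 23.6%). Among the 24 genes that fell and had a window, 7 held the NRF1, 9 the ETS, 4 the YY1 and 6 the HIF motif. Among the other 46 the numbers were 8, 8, 4 and 13. A match is a run of letters and not a binding site, and nothing in these data measured a factor's binding.

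The single Notch1 heterozygous array allowed the same genes to be read with 1 mutant allele. Against wild type 16 of the 84 genes fell and 0 rose (limma), beside 1.53% and 0.718% of all genes. Their median difference was -0.33 (all genes 0.00), 77 of 84 lay below 0 (49.6% of all genes), and 10 of the genes that fell were of complex I, 4 of complex V and 1 each of complexes III and IV. The test assumes that this lone array varies like those of the other groups, and with only the 3 arrays of the 2 genotypes in the fit 0 genes passed. With embryo sex, read from sex-linked genes, in the fit 2 passed; both wild-type arrays had the male pattern and the heterozygous array the female one.

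The deepest differences were again in Atp5e, which fell by 1.54 ± 0.19 (2.92-fold; limma adjusted p = 0.0106), Ndufb10, by 1.16 ± 0.12, and Atp5j2, by 1.13 ± 0.12 (both limma adjusted p = 0.00789). Uqcr11 fell by 0.92, Atp5l by 0.83, Ndufc1 by 0.79, Atp5o by 0.72, Ndufa2 and Ndufb2 by 0.71, Ndufb7 by 0.70, Ndufs7 by 0.64 and Cox6a1 by 0.59 (limma adjusted p from 0.0178 to 0.0411). These 12 genes fell in both Notch1 genotypes, 14.3% of the 84, where 0.96% of all genes did so; both comparisons use the same wild-type arrays. A further 4 fell in the heterozygous array alone by the threshold: Ndufa1 (by 0.62), the X-linked subunit, Ndufa13 (by 0.56), Ndufaf3 (by 0.55), an assembly factor, and Ndufb5 (by 0.54, limma adjusted p from 0.0391 to 0.0452). For none of these 4 did the 2 Notch1 genotypes differ from each other by the test (limma adjusted p from 0.0584 to 0.193). For Ndufa1 the heterozygous array was at -0.59, the Notch1 null arrays at -0.03 and -0.22, and the other 6 between -0.02 and 0.16. The heterozygous array lay below both Notch1 null arrays for 54 of the 84 genes, an order found in 30.8% of all genes.

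Set directly against each other, Notch1 null and Notch1 heterozygous arrays differed in 1 of the 84 genes (limma; 2.45% of all genes differed). Ndufv3 was 0.83 ± 0.11 higher in Notch1 null (1.78-fold; adjusted p = 0.0114), and it no longer passed without the second Notch1 null array. Atp5e (0.78 ± 0.19), Atp5j2 (0.52 ± 0.12) and Ndufb10 (0.49 ± 0.12) were less low in the null arrays without passing (limma adjusted p = 0.0626, 0.0537 and 0.0699), and the median over the 84 genes was 0.13. For 40 of the 84 genes (47.6%) all 3 Notch1 mutant arrays lay below all 6 others, which held for 9.2% of all genes; the opposite held for 1, beside 4.37% of all genes.

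**Figure D4:**
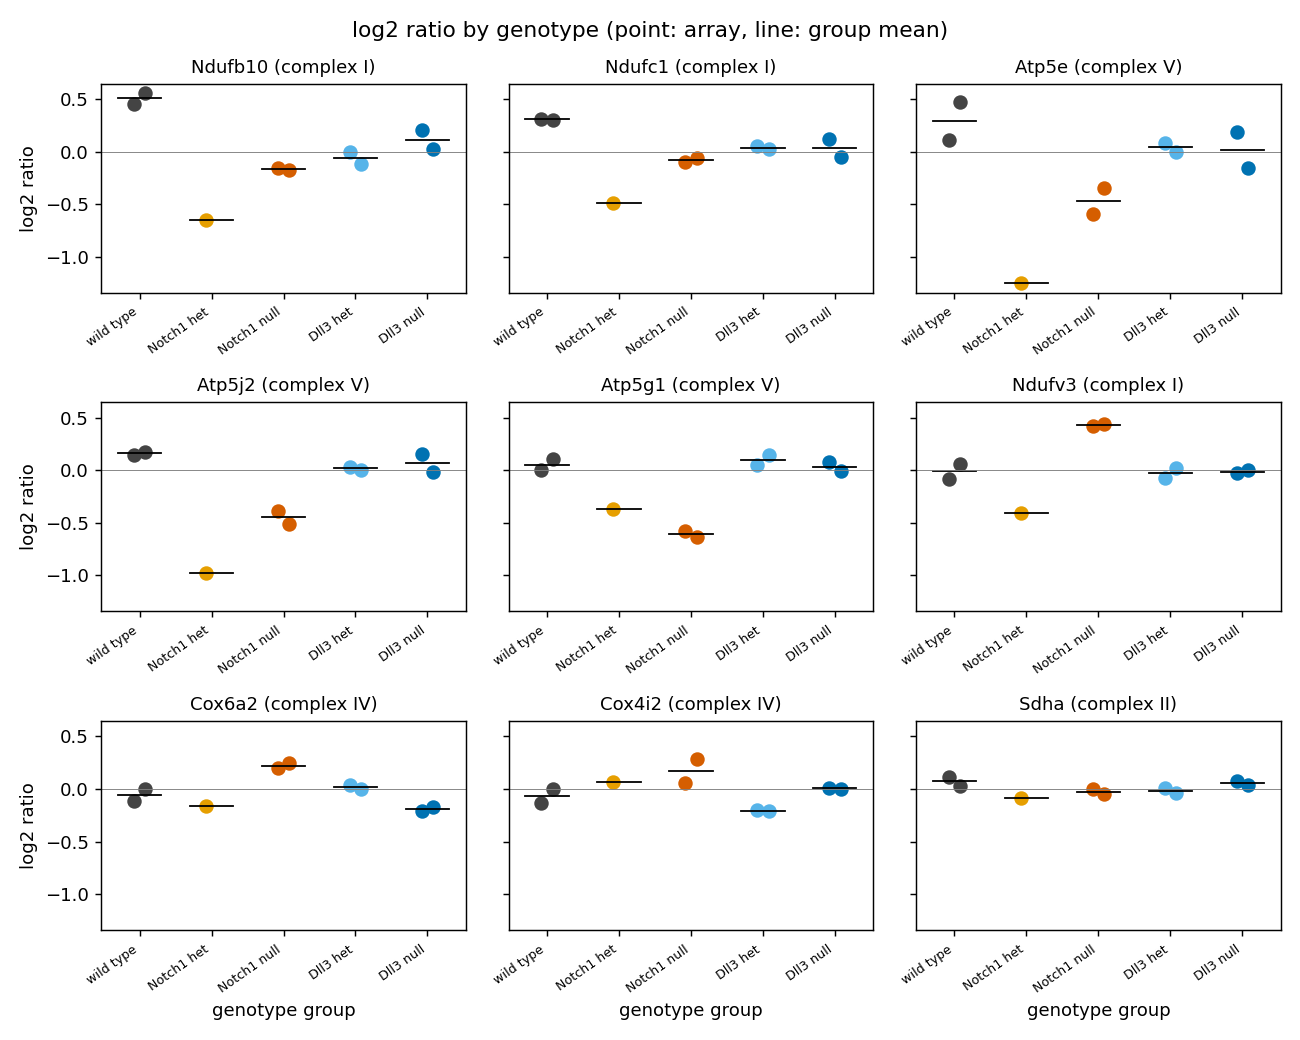
Log2 ratio of 9 genes by genotype; each point is 1 array and each line the mean of the group. Ndufb10, Ndufc1, Atp5e and Atp5j2 are lowest in the Notch1 heterozygous array, Atp5g1 is lowest in Notch1 null, Ndufv3 and Cox6a2 are highest in Notch1 null, and Sdha stays within 0.12 of 0 on every array.

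Neither Dll3 genotype gave a gene that passed. In Dll3 null embryos 0 of the 84 genes passed against wild type by limma, where 1 gene of all did (0.00807%); at an unadjusted p under 0.05 there were 5 of the 84 (5.95%) against 9.34% of all genes. The median difference was -0.03, and 56 of the 84 differences lay below 0 (66.7%, against 49.3% of all genes). Both Dll3 null arrays lay below both wild-type arrays for 27 of the 84 genes (32.1%, background 19.7%). They lay above both for 10 (11.9%, background 19.9%). By complex the lowest and highest differences were -0.39 for Ndufb10 and 0.18 for Ndufs1 in complex I, -0.21 for Sdhc and 0.31 for Sdhd in complex II, and -0.11 for Uqcrfs1 and 0.18 for Uqcrh in complex III. In complex IV they were -0.48 for Cox6b2 and 0.09 for Cox8a, and in complex V -0.28 for Atp5l and 0.12 for Atp5mpl (limma adjusted p from 0.268 to 0.869 over these 10). Sdhd, a membrane anchor of complex II, was at 0.29 and 0.25 in Dll3 null and between -0.15 and 0.09 in the other 7 arrays, so its 2 Dll3 null arrays were the highest (limma adjusted p = 0.376 against wild type).

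Dll3 heterozygous arrays gave 0 of the 84 genes as well (0.113% of all genes passed by limma), and 10 of 84 at an unadjusted p under 0.05 (11.9%, against 14.5% of all genes). Ndufb10 was nearest, with -0.56 ± 0.10 (limma adjusted p = 0.0744), and Ndufa8 next, with 0.42 ± 0.10 (limma adjusted p = 0.0996). Both passed at an adjusted p under 0.1. Of the 84 differences 55 lay below 0 (65.5%, against 52.9% of all genes). Both Dll3 heterozygous arrays lay below both wild-type arrays for 35 genes (41.7%, background 26.8%) and above both for 12 (14.3%, background 19.4%). Between Dll3 null and Dll3 heterozygous arrays 0 of the 84 and 0 of all genes passed by limma (0%), and 4 of the 84 were at an unadjusted p under 0.05, beside 5.28% of all genes.

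The 2 homozygous mutants were then compared with each other, which uses no wild-type array. Here 16 of the 84 genes were lower and 2 higher in Notch1 null than in Dll3 null (limma; 4.87% and 2.92% of all genes), with a median difference of -0.19. Of the 16, 15 had also fallen against wild type, 17.9% of the 84 beside 3.99% of all genes; both comparisons use the same Notch1 null arrays. Atp5g1 (-0.64 ± 0.09, limma adjusted p = 0.0064), Ndufa5 (-0.54 ± 0.09, limma adjusted p = 0.0106) and Atp5j2 (-0.52 ± 0.10, limma adjusted p = 0.015) had the lowest adjusted p. Of the 18 genes, 2 had not passed against wild type: Cox6a2, described next, and Atp5md, a small subunit of the synthase membrane part, which was lower (-0.35 ± 0.09, limma adjusted p = 0.0493; -0.28 against wild type). Higher in Notch1 null were Ndufv3 (0.44 ± 0.09, limma adjusted p = 0.0223) and Cox6a2 (0.41 ± 0.09, limma adjusted p = 0.025). The other 10 genes that had fallen against wild type did not pass here (limma adjusted p from 0.0558 to 0.605). Nearest to passing were Sdhb (-0.39), Ndufa10 (-0.37) and Atp5e (-0.49) (limma adjusted p = 0.0558, 0.062 and 0.0855). Further off were Ndufs4 (-0.26), Ndufb10 (-0.27), Ndufv1 (-0.27), Cox6a1 (-0.23), Atp5l (-0.20), Ndufc1 (-0.11) and Ndufs7 (-0.11). Without the second Notch1 null array 0 of the 84 passed, and without the first Dll3 null array 1 did.

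The counts against wild type rest on few arrays. Leaving out 1 array gave 8 genes (without Notch1 null 1), 7 (without Notch1 null 2), 10 (without wild type 1) and 6 (without wild type 2) in place of 26, and between 26 and 27 when an array of another genotype was left out. Over the same 4 omissions 6.87%, 3.0%, 4.67% and 3.91% of all genes passed. Quantile normalization of the 9 arrays gave 10 genes, all lower, and the medians of all 5 complexes stayed below 0. Atp5g1, Ndufa5 and Ndufb10 passed under all 20 alternatives run for that comparison. At the other end, Ndufs4 passed under 6 of the 20, and Ndufs7 and Cox6a1 under 10 each. Some of the 20 are no separate check. A threshold of 0.1 cannot lose a gene, and the fit without the Notch1 heterozygous array equals the main one. The fit on the compared groups and that on wild-type and Notch1 arrays coincide. Atp5g1 and Ndufb10 have 1 probe set each, so the choice of probe sets changes little for them.

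Genes around the respiratory chain were read from lists drawn up for this purpose, with earlier results of these data known. Their shares are a description, to be read beside the 8.35% of all genes that fell and the 3.76% that rose in Notch1 null. Of 8 genes for electron carriers and their links, 2 (25.0%) fell in Notch1 null: Cycs, which is cytochrome c, by 0.78 ± 0.15 and Cyc1, cytochrome c1, by 0.41 ± 0.10 (limma adjusted p = 0.011 and 0.0326). Of 29 assembly factors (the 5 Ndufaf genes included) 9 (31.0%) fell and 0 rose, with Sdhaf1, an assembly factor of complex II, falling by 0.76 ± 0.10 and Cox19 by 0.52 ± 0.10 (limma adjusted p = 0.003 and 0.0117). Of 17 genes of the tricarboxylic acid cycle and pyruvate dehydrogenase 3 (17.6%) fell: Fh1 (fumarase) by 0.56, Mdh2 by 0.37 and Cs (citrate synthase) by 0.34 (limma adjusted p from 0.00647 to 0.0462). Of 7 carriers and channels 1 (14.3%) fell, the ADP/ATP carrier Slc25a5, by 0.59 ± 0.12 (limma adjusted p = 0.0118).

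Among 18 regulators of mitochondrial gene expression the calls were near the background, with 2 that fell (11.1%, beside 8.35% of all genes), 1 that rose (5.56%, beside 3.76%) and a median of 0.01. Those that fell were Tfb2m, a mitochondrial transcription factor, by 0.89 and the protease gene Clpp, by 0.61, and the coactivator Ppargc1b rose by 0.57 (limma adjusted p from 0.00803 to 0.0167). Of 11 oxygen-response genes that act on mitochondria 3 (27.3%) rose in Notch1 null: Bnip3, a mitophagy receptor, by 1.84 ± 0.09, Pdk1, the kinase that inhibits pyruvate dehydrogenase, by 1.53 ± 0.11, and Mxi1 by 0.68 ± 0.13; Iscu, a scaffold for iron-sulphur clusters, fell by 0.64 ± 0.11 (limma adjusted p from 3.08e-05 to 0.0118). In the Notch1 heterozygous array none of these 11 passed, with Bnip3 at -0.01 and Pdk1 at 0.17 against wild type. There 4 of the 29 assembly factors fell, beside 1.53% of all genes. In Dll3 null arrays 0 genes of these lists passed (limma), beside 0.00807% of all genes.

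Mitochondrial ribosomal protein genes, a set of like function, fell more widely in Notch1 null: 40 of 74 with a median of -0.40, against 3 of 74 and -0.22 in the heterozygous array and 0 in Dll3 null arrays (limma). The respiratory genes had the reverse order of medians, -0.23 in Notch1 null and -0.33 in the heterozygous array. Of 38 cytosolic ribosomal protein genes 0 passed in Notch1 null, with a median of -0.10, and 1 fell in the heterozygous array. Among all genes 8.35% fell in Notch1 null and 1.53% in the heterozygous array, and 0.00807% passed in Dll3 null arrays. In Dll3 null 51 of the 74 mitochondrial ribosomal protein genes lay below 0 (median -0.04), beside 49.3% of all genes. The differences between the sets were not tested.

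Markers of other tissues moved in the same arrays. Their counts are to be read beside the shares of all genes. In Notch1 null 8.35% fell and 3.76% rose, and in the heterozygous array 1.53% fell. Of 13 markers of neurons and neural progenitors 12 fell in Notch1 null (median -0.83) and 7 in the heterozygous array, among them Tubb3, Fabp7, Hes5 and Stmn2, and 0 passed in Dll3 null arrays (limma). That 0 stands beside 0.00807% of all genes passing in Dll3 null. There 12 of the 13 markers lay below 0 (median -0.34), as did 49.3% of all genes. The mean of the 13 markers was -0.66 and -0.64 in Notch1 null, -0.42 in the heterozygous array and 0.42 and 0.27 in wild type. It lay between -0.02 and 0.14 in the Dll3 arrays. The 3 Notch1 mutant arrays were thus lowest, as they were for the mean of the 84 genes (-0.16, -0.13 and -0.28). Among those 3 the heterozygous array was the least low for the neural markers and the lowest for the respiratory genes. Endothelial markers gave 3 of 9 that rose in Notch1 null (33.3%), and those of primitive red cells gave 0 of 9. Those of yolk sac and liver endoderm gave 1 of 9 that fell (11.1%), a count near the background. All 9 differences lay below 0 (median -0.54), beside 57.5% of all genes. The mean of these 9 was 0.20 and -0.64 in Notch1 null and -0.15 and 0.59 in wild type, so arrays of 1 genotype lay far apart. The part of these tissue markers in the values of the respiratory genes was not tested. The ratio of the spike-in control dap was 6.71 and 9.20 for wild type, 5.35 and 2.87 for Notch1 null, 1.00 in the heterozygous array and 0.44 to 0.47 in the Dll3 arrays. Over the wild-type and Notch1 arrays it thus ran in the same order of genotypes as the mean of the 84 genes, as did the controls thr, phe and lys, while the Dll3 arrays had the lowest dap and member means between -0.01 and 0.08. Its part in the result was not tested.

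Within the set, most genes moved together. Over the 9 arrays 75 of the 84 genes correlated above 0 with the mean of the other members and 49 above 0.7. The median was 0.81. The arrays fall into genotypes, so these values describe the same group differences once more and carry no test. The share of all genes with such correlations was not counted, so the values cannot be read as particular to the set. Cox4i2 (-0.57), Cox7c (-0.38) and Cox6a2 (-0.29) had the lowest correlations. The genes outside the set most like its mean over the 9 arrays were Rnaseh2c (0.99), Tmem42 (0.98), Tmsb4x (0.98), Sat1 (0.98) and Nudt1 (0.97). Rnaseh2c, a subunit of ribonuclease H2, fell by 0.53 in Notch1 null and by 0.77 in the heterozygous array (limma adjusted p = 0.0091 and 0.0182).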

How the data were processed

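RNA of 9 whole-embryo samples in 5 genotypes was measured on Affymetrix arrays, and groups were taken from the labels. RMA, a background correction, normalization and probe summary in one, is named in the submitters' processing notes, with no version. What the authors deposited are linear ratios. Over the 9 arrays the median is 1 for 19847 of 22690 probe sets and more than 0.002 below 1 for 2824, so that each was divided by a number of its own, a step no source used here describes. The divisor leaves differences between arrays as they were and removes the level, so no filter on level could be applied, and depth has no meaning for arrays beyond their number, which limits the precision. Of the 156 probe sets of the 84 genes, 3 were among those 2824.

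The deposited ratios were converted to log2 with no pseudocount, and probe sets of a gene were averaged. After 64 control probe sets were set aside, 20380 probe sets carried 1 symbol (12393 genes), 691 several and 1555 none. Limma 3.58.1 in R 4.3.3 (lmFit, eBayes) fitted 1 mean per genotype over all 9 arrays, leaving 4 residual degrees of freedom, with 5.64 added by the prior. For each of the 7 comparisons, p-values were adjusted by Benjamini-Hochberg over all genes, and an adjusted p under 0.05 was taken as passing. Values after ± are its standard errors. The procedure was run on simulated data with independent normal noise, which is what the fit itself assumes. That run cannot speak to effects shared by the genes of an array, nor to a lone array that varies unlike the others.

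Members and lists were chosen with earlier results of these data known. Named were genes past the threshold in any comparison, the highest and lowest of each complex in both homozygous mutants against wild type, isoforms, X-linked genes, core subunits and Sdh genes, the 2 to 4 genes of lowest p in each other list, and the 5 genes most like the mean. Alternatives covered scaling, the arrays in the fit, array weights, a replicate block, embryo sex, the choice of probe sets, the threshold and leaving out each array. Replicate numbers recur across genotypes, but the deviations of same-numbered arrays correlated between -0.12 and 0.18, so they were not taken as pairs. Probe sets with several symbols were not counted as members.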

Additional observations from a re-analysis of the deposited data

How the results depend on the processing

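Of 1185 values of single called genes under an alternative, 775 kept their direction and their side of the threshold. Another 410 no longer passed, and 0 reversed. Of 720 medians 635 moved by less than the spread, the standard deviation of array medians within genotypes, and 85 by more. Many of the 635 could not move. Leaving out an array of a genotype not compared, or fitting the compared groups alone, keeps the group means as they are. These counts are therefore no measure of how stable the medians are. In place of 26 genes passing for Notch1 null against wild type, quantile normalization gave 10, and leaving out 1 array gave 6 to 27. For the Notch1 heterozygous array against wild type, in place of 16, quantile normalization gave 5, the compared groups alone 0, the wild-type and Notch1 arrays alone 6, embryo sex as a covariate 2 and a threshold of 0.1 gave 30, with 2 to 10 when 1 array was left out. The lowest of these, 2, was without wild type 2, and the others were 3 without wild type 1, 5 without either Notch1 null array, 6 without either Dll3 heterozygous array and 10 without either Dll3 null array. For Notch1 null against Notch1 heterozygous, in place of 1, centring on the median, array weights and single probe sets gave 2 each, the compared groups alone 0 and a threshold of 0.1 gave 8, with 0 to 2 when 1 array was left out. For Notch1 null against Dll3 null, in place of 18, centring gave 11, quantile normalization 5, the compared groups alone 1 and embryo sex 11, with 0 to 18 when 1 array was left out. For Dll3 heterozygous against wild type a threshold of 0.1 gave 2 in place of 0. The cause was not tested, beyond the smaller number of arrays where some were left out.

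The replicate number as a block (replicate block) gave 23 genes for Notch1 null against wild type, 6 for Notch1 heterozygous against wild type and 14 for Notch1 null against Dll3 null. The labels do not say that the numbers pair arrays; by sex-linked genes replicate 1 was female in every genotype but wild type, and every replicate 2 was male. Where a group was left with 1 array, that array was assumed to vary like the other groups. With only Dll3 arrays in the fit, Dll3 null against heterozygous is the same as with the compared groups alone. A filter on dim probe sets was not run, since the level is not in the values. Genes whose difference is small against a standard error of about 0.09 to 0.15 could not be told from no change with 2 arrays a group.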

Other observations

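Probe sets annotated to several symbols were not counted among the 84 genes, and 8 of them carry an Nduf symbol beside another. In Notch1 null against wild type, the probe set of Ndufa11 and Ndufa11b fell by 0.80 (log2; limma adjusted p = 0.0131 among probe sets), that of Ndufs5 and its pseudogene by 0.64 (limma adjusted p = 0.011) and that of Ndufab1 and its pseudogene by 0.45 (limma adjusted p = 0.0279). Both probe sets of the Ndufb4 group (-0.44 and -0.12), that of Ndufs6 and Ndufs6b (-0.31), that of Ndufb2 and Adck2 (-0.24) and that of Ndufa13 and Yjefn3 (0.07) did not pass. Which of the joined genes gives such a signal cannot be read from these values.

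Of the 84 genes, 45 were measured by several probe sets and 39 by one. In Notch1 null against wild type all probe sets lay below 0 for 29 of the 45, all above 0 for 3 and on both sides of 0 for 13, and the median range between the probe sets of a gene was 0.24 (log2). None of the 13 with both directions was among the genes that passed. The test used the mean of a gene's probe sets, and opposite directions draw that mean towards 0, so passing was unlikely for them. Genes with 1 probe set, among them Ndufb10, Atp5e and Atp5g1, could show no disagreement.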
